A study of Mus musculus with 32 samples.

Results

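Nr4a1, Nr4a2 and Nr4a3 form the Nr4a family of orphan nuclear receptors and were followed here in the hippocampus (HPC), the meninges and sorted meningeal lymphatic endothelial cells (mLECs) of 5xFAD mice given near-infrared light through the skull. They are 3 of the 22337 genes measured in all 32 samples and were picked by their gene symbols. The family was selected on results that were already known, among them the large difference in Nr4a3 between light-treated and untreated meninges. Values from the meninges are therefore given as a description, without a test.

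All mice were male and 6 months old, and each sample came from 1 mouse. 5xFAD mice carry transgenes for mutant human amyloid precursor protein and presenilin under the neuronal Thy1 promoter, and WT mice were littermates without the transgenes. The light-treated group (5xFAD + light) was anesthetized, shaved and illuminated, while untreated 5xFAD and WT mice had the same handling under indoor lighting. The time between the last session and tissue collection is not given in the sources used here; transcripts of early genes are short-lived. There were 4 samples in each HPC group and in the WT groups of meninges and mLECs, and 3 in each of the other groups. The mLECs were released by enzymatic digestion and sorted as DAPI- CD45- CD31+ PDPN+ cells.

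Nr4a receptors are transcription factors whose ligand pocket is filled by the receptor's own side chains, so they act without a known ligand and are governed mainly by how much of them is made. They are immediate early genes: neuronal activity, growth factors, hormones and cell stress raise their transcripts quickly, largely through cAMP- and calcium-driven CREB and through MEF2 factors. The proteins bind as monomers to an NGFI-B response element, as dimers to related palindromes, and Nr4a1 and Nr4a2 also pair with retinoid X receptors (RXRs). Nr4a1 (Nur77) is known for its roles in T cells, macrophages and endothelium, Nr4a2 (Nurr1) for the dopamine neurons of the midbrain and for memory in the hippocampus, and Nr4a3 (Nor1) for muscle, vessels and blood cells.

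In GRCm38 (GENCODE vM21), Nr4a1 lies on the plus strand of chromosome 15 from 101254269 to 101274795, Nr4a2 on the minus strand of chromosome 2 from 57106830 to 57124003, and Nr4a3 on the plus strand of chromosome 4 from 48045153 to 48086447. The promoter stretches are shown because the letters that CREB recognises are the feature the genes share that played no part in choosing them. Capitals mark TGACG or its reverse complement CGTCA, the core of the cAMP response element (CRE), read from RefSeq sequence of GRCm38.p6 in the direction of transcription. The stretches are chr15:101266596-101266845 (plus strand, inside an intron of the longer Nr4a1 transcript), chr2:57124004-57124253 (minus strand) and chr4:48045055-48045152 (plus strand, cut at the first annotated Nr4a3 exon).
Nr4a1: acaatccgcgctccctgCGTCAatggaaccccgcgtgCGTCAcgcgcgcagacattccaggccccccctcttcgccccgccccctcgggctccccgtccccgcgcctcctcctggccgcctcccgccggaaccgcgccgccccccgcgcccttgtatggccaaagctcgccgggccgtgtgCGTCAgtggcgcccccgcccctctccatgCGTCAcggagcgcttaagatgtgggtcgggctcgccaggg
Nr4a2: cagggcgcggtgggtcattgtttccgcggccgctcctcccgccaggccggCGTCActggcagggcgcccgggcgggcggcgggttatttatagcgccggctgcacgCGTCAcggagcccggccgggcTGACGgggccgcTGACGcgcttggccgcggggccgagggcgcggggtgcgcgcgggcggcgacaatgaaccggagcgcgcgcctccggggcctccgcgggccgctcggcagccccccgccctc
Nr4a3: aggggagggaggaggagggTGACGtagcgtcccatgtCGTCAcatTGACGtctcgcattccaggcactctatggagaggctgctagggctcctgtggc

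In the 250 bases before its RefSeq start, each of the 3 genes held 4 such cores on either strand. For Nr4a1 these began at -233, -213, -69 and -40 from the start, for Nr4a2 at -200, -144, -123 and -111, and for Nr4a3 at -231, -213, -205 and -147. The Nr4a3 core at -147 lies past the start of the first annotated exon, so the stretch shown above holds 3 of the 4. Of 32851 windows of the same length before mouse genes, 17.8% held at least 1 core, 0.688% at least 3 and 0.137% (45 windows) at least 4. The whole palindromic element TGACGTCA, which holds 2 overlapping cores, was in none of the 3 windows and in 1.55% of all windows. Neither the NGFI-B response element AAAGGTCA (1.34% of all windows) nor the CArG box read by serum response factor (1.47%) was found in the 3 windows. These matches describe letters and do not show that a factor was bound.

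Transcript levels are given as FPKM, which scales reads by transcript length and library size, so that levels can be set side by side between genes. HPC and meninges were deposited in one table and mLECs in another, so a level in mLECs beside the other tissues crosses tables that were made separately. Total counts were 13952825 to 23856476 per HPC library, 6601143 to 14708202 per meninges library and 14231415 to 24207326 per mLEC library, and the mLEC libraries held counts for only 5998 to 9020 genes. Counts of Nr4a3 were 269 to 911 per HPC library, 23 to 1052 per meninges library and 0 to 759 per mLEC library, so that its mLEC values rest on the fewest reads. RNA was taken from whole tissue or a sorted pool, in which fewer cells of a type and less RNA per cell cannot be told apart.

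Some libraries stood apart in their cell markers. In HPC, 5xFAD replicate 3 had a summed level of 4 dentate granule neuron markers of 36.2 FPKM against 97.5 to 234.7 in the other 11 libraries, and the highest sum of 6 markers of deep cortical layers and subiculum (46.7 FPKM against 10.7 to 29.6). Among the mLEC libraries, WT replicates 2 and 4 had summed lymphatic endothelial markers of 38.0 and 55.7 FPKM against 1156 to 9718 in the other 8. Blood endothelial markers summed to 974 to 3285 FPKM in every mLEC library, Prox1 was at 0 in 3 of 10 libraries, Lyve1 in 2 and Pdpn in 4, and Ptprc (CD45) was at 0 in all 10. All meninges libraries held pineal gland markers (241 to 1583 FPKM) and choroid plexus markers (15570 to 49069 FPKM).

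Nr4a1 was the most abundant member in every one of the 32 samples. Its group mean was 911 FPKM in WT mLECs, 115 FPKM in WT meninges and 31.6 FPKM in WT HPC. Ordered by group mean, all 3 mLEC groups came first, then the meninges and then HPC, and each group overlapped with its neighbour in that order. Only the mLECs were digested and sorted. The early gene Fos had WT means of 2022 FPKM in mLECs, 35.9 in meninges and 11.5 in HPC. In the levels of the family, cell type and this handling cannot be told apart. Among 49 nuclear receptor genes Nr4a1 had the highest mean level in all 3 groups of meninges and of mLECs, whereas in HPC it was behind receptors that included Thra, Nr1d1 and Nr1h2 and held place 4, 4 and 5 in WT, 5xFAD and 5xFAD + light.

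Nr4a2 was highest in WT mLECs (140 FPKM) and in light-treated mLECs (58.6 FPKM), and both stood above the group next in order, untreated 5xFAD meninges (22.2 FPKM), with only the step from light-treated mLECs to those meninges free of overlap. Below it, WT meninges (21.0 FPKM), WT HPC (19.4), 5xFAD HPC (12.6), 5xFAD mLECs (8.72), light-treated HPC (8.43) and light-treated meninges (7.96 FPKM) each overlapped with the group before. Its place among the 49 receptors was 6, 8 and 12 in WT, 5xFAD and light-treated HPC, 8, 8 and 15 in meninges, and 2, 12 and 2 in mLECs.

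Nr4a3 was the least abundant member in most samples. Its means were 10.97 FPKM in WT meninges, 10.6 in 5xFAD meninges, 6.48 in WT HPC, 5.90 in light-treated HPC, 4.82 in 5xFAD HPC, 4.56 in light-treated mLECs, 2.94 in 5xFAD mLECs, 2.05 in WT mLECs and 0.857 FPKM in light-treated meninges. Neighbours in this order overlapped throughout, also at its lower end, because mLEC values ran down to 0. Among the receptors it held places 14, 15 and 31 in WT, 5xFAD and light-treated meninges.

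**Figure D1:**
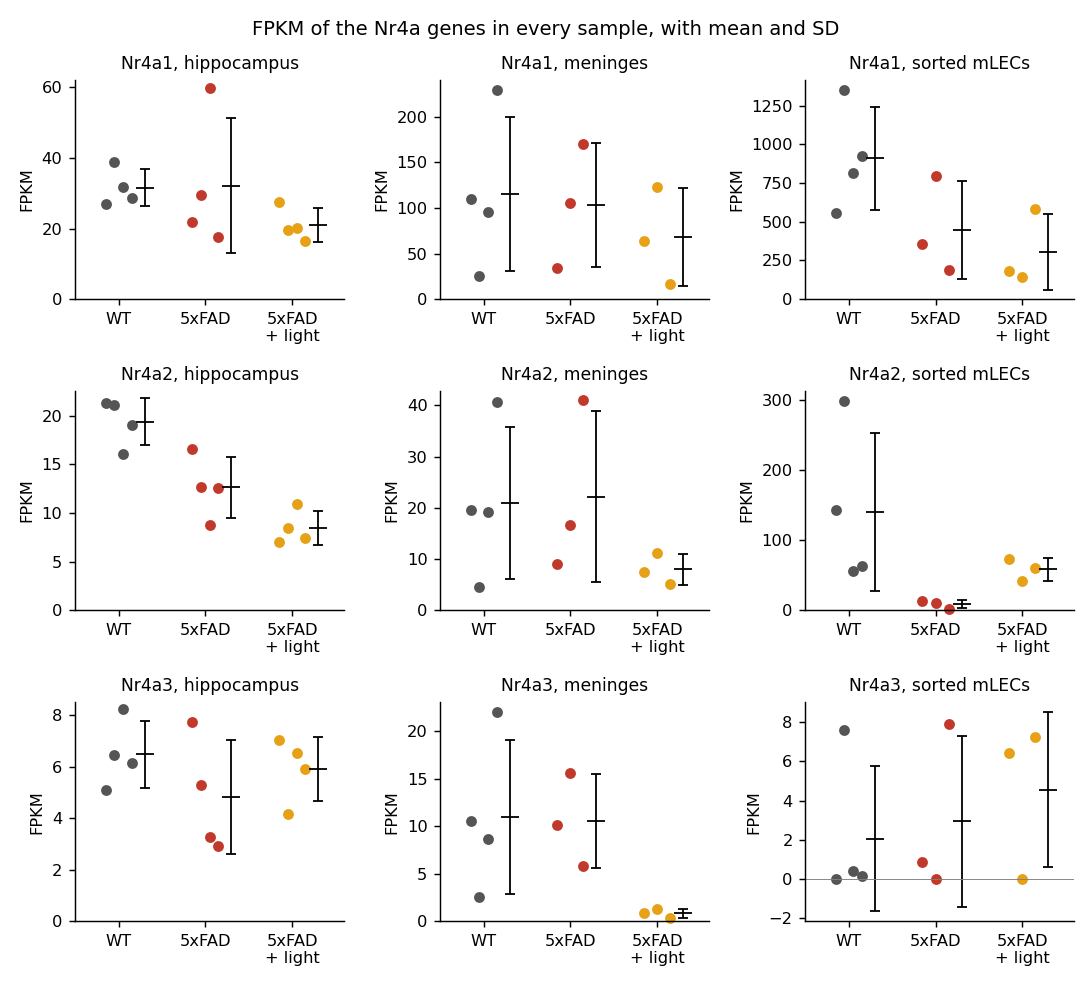
FPKM of Nr4a1, Nr4a2 and Nr4a3 (rows) in hippocampus, meninges and sorted mLECs (columns). Each point is 1 sample and the black bars give mean and SD of WT, 5xFAD and 5xFAD + light; the scale differs between panels. In meninges all 3 light-treated samples lie at 0.39 to 1.29 FPKM of Nr4a3, below the lowest of the untreated samples (2.59 FPKM), and in hippocampus all 4 light-treated samples lie below all WT samples for Nr4a2.

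Whether the Alzheimer's model and light alter the family in the hippocampus was asked first. The family was chosen with earlier results of these data known, so its HPC and mLEC p values may not be independent of that choice. Nr4a2 fell from WT to 5xFAD mice by 0.61 on the log2 scale, and it was lowest in light-treated mice, 1.23 on the log2 scale below WT. Nr4a1 and Nr4a3 did not pass in any HPC comparison when all 3 groups were fitted together. The fits used edgeR over 12981 genes, and a gene was called where its adjusted p was below 0.05 and its change at least 2-fold. All comparisons between treated, untreated and WT mice share samples and are not independent of each other.

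Nr4a2 measured 21.3, 21.1, 16.1 and 19.0 FPKM in the WT HPC samples, 16.5, 12.6, 8.79 and 12.6 FPKM in 5xFAD, and 7.03, 8.41, 10.9 and 7.40 FPKM in 5xFAD + light. The means were 19.4 ± 2.43, 12.6 ± 3.16 and 8.43 ± 1.73 FPKM (SD, n = 4 each). Only 1 5xFAD sample reached into the WT range, and all 4 light-treated samples lay below all 4 WT samples. Between 5xFAD and WT the log2 fold change was -0.61 (SE 0.17, 95% interval -0.98 to -0.24, edgeR adjusted p = 0.0413), a change that passed the adjusted p but is smaller than 2-fold. Of all tested genes, 2.06% were lower in 5xFAD at that adjusted p, and 4.28% were called with the fold threshold, nearly all of them higher. The adjusted p no longer passed with the 2 groups fitted alone (edgeR adjusted p = 0.0666) and when any of 6 of the 8 samples was left out, for example at adjusted p = 0.0693 without 5xFAD replicate 3 and 0.110 without WT replicate 1.

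Light-treated and untreated 5xFAD mice differed in Nr4a2 by -0.62 on the log2 scale (SE 0.17, interval -0.99 to -0.25), with an edgeR adjusted p of 0.115 that did not pass. The ranges of the 2 groups overlapped from 8.79 to 10.9 FPKM. In this comparison 0.270% of all genes were called. DESeq2 gave Nr4a2 an adjusted p of 0.0278 in the same comparison.

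The comparison of light-treated 5xFAD with WT was added after the values had been seen. There, Nr4a2 had a log2 fold change of -1.23 (SE 0.17, interval -1.60 to -0.86, edgeR adjusted p = 0.000858), where 0.539% of all tested genes were lower at an adjusted p below 0.05. Every light-treated sample was below every WT sample, which held for 7.52% of all tested genes. Nr4a2 passed without each sample in turn, with adjusted p from 0.00128 to 0.00500.

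Marker levels also differed between these groups, but not all in the same direction. The 6 neuron markers summed to 1766 to 1927 FPKM in WT and to 1520 to 1635 FPKM in light-treated HPC, without overlap, with 1399 to 1855 FPKM in untreated 5xFAD. Snap25 made up most of that sum (means of 1263 FPKM in WT and 1035 with light). Between light-treated mice and WT, the log2 fold changes were -0.27 (Snap25), -0.22 (Syt1), -0.53 (Gad1) and -0.58 (Gad2). Rbfox3 (0.08) and Slc17a7 (0.12) went the other way. Markers of deep cortical layers and subiculum, whose neurons are among those that express Nr4a2, summed to 11.1 to 29.6 FPKM in WT, 18.5 to 46.7 in 5xFAD and 10.7 to 18.4 FPKM in 5xFAD + light, and none of the 6 was at 0 throughout a group. One of them, Ccn2, was lower in light-treated mice than in WT (log2 fold change -1.86, SE 0.46, edgeR adjusted p = 0.0386). There Cplx3 (-1.09), Nxph4 (-0.49) and Fn1 (-0.40) also had negative values, while Foxp2 (1.23) and Tle4 (0.02) did not. 5xFAD replicate 3, with the highest of these sums, had the lowest Nr4a2 of its group (8.79 FPKM). Microglia and macrophage markers summed to 114 to 131 FPKM in WT, 288 to 455 in 5xFAD and 244 to 388 FPKM in 5xFAD + light. Choroid plexus markers summed to 35.9 to 2784 FPKM in WT, 204 to 3180 in 5xFAD and 62.0 to 242 FPKM in 5xFAD + light. In that order of groups, the 4 dentate granule neuron markers summed to 97.5 to 171, 36.2 to 152 and 153 to 235 FPKM. The 6 meningeal fibroblast markers summed to 26.4 to 46.8, 24.6 to 108 and 9.72 to 26.7 FPKM. The part of these markers in the Nr4a2 result was not tested.

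Nr4a1 measured 27.1, 38.8, 31.7 and 28.7 FPKM in WT HPC, 21.8, 29.4, 59.8 and 17.6 FPKM in 5xFAD, and 27.6, 19.7, 20.02 and 16.4 FPKM in 5xFAD + light. The single high value was 5xFAD replicate 3, the library with few dentate granule markers, which also had the highest Egr1 of HPC (102 FPKM). All other 5xFAD samples lay within or below the WT range. The log2 fold change was 0.03 (SE 0.30, edgeR adjusted p = 0.959) between 5xFAD and WT, and -0.63 (SE 0.31, interval -1.29 to 0.03, adjusted p = 0.290) between light-treated and untreated 5xFAD. Between light-treated 5xFAD and WT it was -0.60 (SE 0.31, adjusted p = 0.355), and with these 2 groups fitted alone the adjusted p was 0.0375.

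Nr4a3 measured 5.10, 6.46, 8.22 and 6.12 FPKM in WT HPC, 7.74, 5.30, 3.28 and 2.94 FPKM in 5xFAD, and 7.02, 4.15, 6.54 and 5.90 FPKM in 5xFAD + light. The 3 groups overlapped. Its log2 fold changes were -0.40 (SE 0.29, edgeR adjusted p = 0.420) between 5xFAD and WT and 0.28 (SE 0.29, adjusted p = 0.624) between light-treated and untreated mice. Whether Nr4a2 differed from Nr4a1 or Nr4a3 in its response was not tested.

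**Figure D2:**
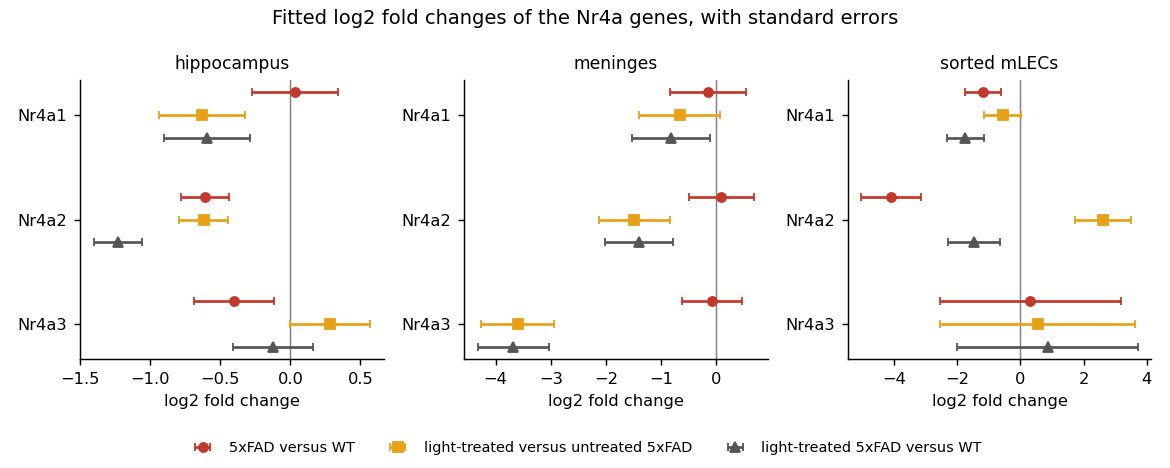
Fitted log2 fold changes (horizontal axis) of the 3 genes in hippocampus, meninges and sorted mLECs, with edgeR standard errors as bars, for 5xFAD versus WT, light-treated versus untreated 5xFAD, and light-treated 5xFAD versus WT. The scales differ between panels. Nr4a2 lies at -0.61, -0.62 and -1.23 in hippocampus, and Nr4a3 at -3.60 and -3.68 in the light comparisons in meninges; the meninges values are a description.

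The other immediate early genes of the hippocampus give the setting for these values. Of 25 listed, 23 were tested, and 4 were called higher in 5xFAD than in WT, against 4.23% of all genes called higher. These were Fos (23.8 against 11.5 FPKM, log2 fold change 1.07, edgeR adjusted p = 0.0377), the stress-induced factor Atf3 (2.34, adjusted p = 0.00221), the mRNA-decay protein Zfp36 (1.19, adjusted p = 0.0241) and the matrix protein Ccn1 (1.22, adjusted p = 0.0320). In all, 20 of the 23 had a positive fold change, with a median of 0.56 against 0.01 over all tested genes. Nr4a2, with a fitted value of -0.61, was below the lowest of the 23, Jun (-0.23). Egr1, a zinc finger factor (0.02), Junb (0.54), Arc, which acts at synapses (0.56), and Npas4, a neuronal activity factor (-0.19), did not pass.

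Between light-treated and untreated 5xFAD, none of the 23 early genes was called. Of them, 20 had a negative fold change, 13 were lower and 2 higher at an unadjusted p below 0.05, and the median was -0.86 against -0.02 over all genes. Over all tested genes, 9.81% were lower at that unadjusted p. Fosb had the lowest value (-1.87, edgeR adjusted p = 0.121), which rests on untreated replicate 1 (15.9 FPKM against 1.74 to 2.97 in the other 3 untreated samples and 1.03 to 1.65 with light), and Npas4 the highest (1.59, adjusted p = 0.160). Nr4a1 (-0.63) and Nr4a2 (-0.62) lay inside the range of the list and Nr4a3 (0.28) near its upper end. 5xFAD replicate 3, with the highest Nr4a1 and Egr1, is in the untreated group of this comparison.

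**Figure D3:**
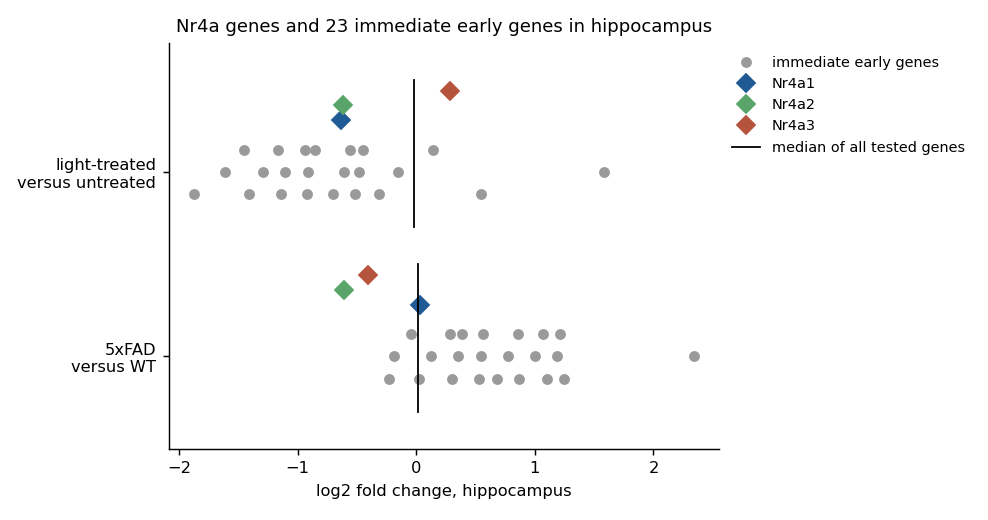
Log2 fold changes in hippocampus of 23 immediate early genes (grey circles) and of Nr4a1, Nr4a2 and Nr4a3 (diamonds); the black line is the median of all tested genes. For 5xFAD versus WT (lower row) most early genes lie to the right, with a median of 0.56, and Nr4a2 to the left at -0.61. For light-treated versus untreated 5xFAD (upper row) their median is -0.86.

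Genes that act upstream of the family, partner with it or lie downstream were counted beside the shares of all genes, 4.28% called between 5xFAD and WT and 0.270% with light, and a list count near those shares is no result about the list. Among 17 genes for CREB, its coactivators, kinases, MEF2 factors and class IIa histone deacetylases, none was called in any HPC comparison. Crem, a CREB relative, measured 24.3 ± 0.919 FPKM in WT, 24.0 ± 3.90 in 5xFAD and 17.6 ± 1.10 FPKM in 5xFAD + light (SD, n = 4 each), and its log2 fold change with light was -0.46 (SE 0.13, edgeR adjusted p = 0.115). Of 8 partners and interacting proteins none was called; with light, Rxra stood at -0.17 (SE 0.18), the glucocorticoid receptor Nr3c1 at 0.13 (SE 0.24) and Rxrg, 1 of the RXR genes, at -1.15 (SE 0.37, adjusted p = 0.146). Of 8 tested genes described as targets, 1 was called higher in 5xFAD than in WT, namely Spp1 (osteopontin, log2 fold change 2.74, edgeR adjusted p = 0.00932), which is also made by activated microglia.

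In the meninges, Nr4a3 had the widest gap of the family between light-treated and untreated mice. It measured 10.6, 2.59, 8.67 and 22.01 FPKM in WT, 10.2, 15.7 and 5.85 FPKM in 5xFAD, and 0.89, 1.29 and 0.39 FPKM in 5xFAD + light. All 3 light-treated samples lay below all 7 untreated samples. Markers of other cells also differed in this contrast, without passing an adjusted p. Cx3cr1 of microglia and macrophages was 14.4 ± 2.6 FPKM with light and 6.81 ± 2.23 in untreated 5xFAD, the fibroblast gene Col1a1 297 ± 138 and 159 ± 54.6 FPKM, the neuronal gene Slc17a7 2.46 ± 1.52 and 6.18 ± 2.01 FPKM, and the smooth muscle gene Tagln 128 ± 22.4 and 173 ± 16.6 FPKM (SD, n = 3 each). Among neuron markers, Rbfox3 (log2 fold change -0.78), Syt1 (-0.70) and Gad2 (-0.70) were also lower with light, but Snap25 (0.31) and Gad1 (0.48) were higher. Among smooth muscle and pericyte markers, Myh11 (-0.07) and Rgs5 (-0.11) were lower, and Acta2 (0.01) and Pdgfrb (0.31) were not. Summed, the 6 microglia and macrophage markers were 961 to 2004 FPKM with light, 636 to 1291 in untreated 5xFAD and 575 to 1428 in WT, and the 6 fibroblast markers 1283 to 1993, 848 to 1955 and 1008 to 1419 FPKM, with no marker of either list at 0 throughout a group. In the same order of groups, the 6 neuron markers summed to 109 to 375, 81.2 to 238 and 157 to 464 FPKM. The 5 smooth muscle and pericyte markers summed to 261 to 361, 302 to 373 and 218 to 314 FPKM. Their part in the Nr4a3 values was not tested. The log2 fold change was -3.60 (SE 0.66) against untreated 5xFAD and -3.68 (SE 0.65) against WT, given as a description of the contrast on which the family was selected. Every light-treated sample was below every untreated 5xFAD sample for 10.7% of all 14318 tested genes, and below every WT sample for 5.34%. Between 5xFAD and WT the Nr4a3 value was -0.08 (SE 0.55), in a comparison where edgeR called no gene (0%, with 574 genes at an unadjusted p below 0.05) and DESeq2 none either.

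For Nr4a1 the spread within groups was wider than the difference between their means. It measured 110, 25.9, 95.2 and 230 FPKM in WT meninges, 34.6, 105 and 171 FPKM in 5xFAD, and 63.7, 123 and 16.4 FPKM in 5xFAD + light, so that the groups overlapped. Its fitted differences were -0.15 (SE 0.69) between 5xFAD and WT and -0.66 (SE 0.74) between light-treated and untreated mice.

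Nr4a2 measured 19.6, 4.61, 19.1 and 40.7 FPKM in WT meninges, 8.99, 16.6 and 41.0 FPKM in 5xFAD, and 7.48, 11.2 and 5.21 FPKM in 5xFAD + light. The light-treated values sat at the low end of the range but overlapped with both other groups. The log2 fold changes were 0.09 (SE 0.59) between 5xFAD and WT and -1.49 (SE 0.65) with light.

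In WT meninges, the share of each gene in the family's summed FPKM varied less than the levels. There the sum ranged from 33.1 to 293 FPKM, yet Nr4a1 made up 77.4% to 78.6% of it, Nr4a2 13.9% to 15.5% and Nr4a3 7.05% to 7.82%. In untreated 5xFAD the Nr4a3 share was 18.9%, 11.4% and 2.69%, a wider relative spread than that of its level (10.2, 15.7 and 5.85 FPKM). In light-treated mice the share was 1.24%, 0.949% and 1.78%. Nr4a3 thus had a smaller share in all 3 light-treated samples than in any untreated sample, while light-treated replicate 2 had a summed level of 136 FPKM, close to that of WT replicate 1 (140 FPKM).

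**Figure D4:**
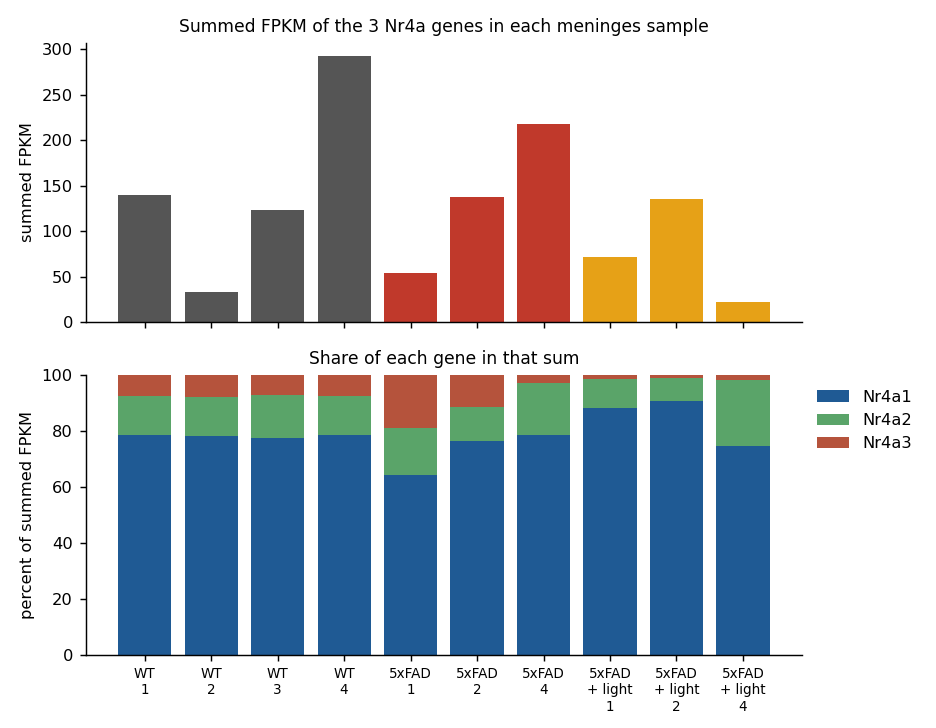
Top, summed FPKM of the 3 Nr4a genes in each of the 10 meninges samples (bars coloured by group); bottom, the percent of that sum due to Nr4a1, Nr4a2 and Nr4a3. The sum runs from 21.97 to 293 FPKM. The Nr4a3 share is 7.05% to 7.82% in WT, 2.69% to 18.9% in untreated 5xFAD and 0.949% to 1.78% in light-treated samples.

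Across the 10 meninges samples, Nr4a1 and Nr4a2 moved together more closely than either did with Nr4a3. In log2(FPKM + 1), Nr4a1 and Nr4a2 had a Pearson correlation of 0.90 (Spearman 0.88) and 0.97 over the 7 untreated samples, whereas Nr4a1 and Nr4a3 had 0.58 and 0.63, and Nr4a2 and Nr4a3 had 0.71 and 0.58. The 5 genes most like Nr4a1 were Junb (0.95), Tob2, Mbd1, Zfp36 and Ier2, of which Junb, Zfp36 and Ier2 are early genes. The 5 most like Nr4a2 were Adamts1 (0.96), Ncoa2, Tamalin, the CREB-induced kinase Sik1 and Mbd1. The 5 most like Nr4a3 were Slc6a17 (0.98), Sbno2 (0.98), Stk40, Map3k6 and Hdac4. The points share groups, tissue and cell makeup, and the genes were the highest of all those tested, so these values describe and do not test a relation. With deviations from the group means in place of the values, 3, 3 and 1 of the 5 genes were again among the 5 highest for Nr4a1, Nr4a2 and Nr4a3.

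Fkbp5, a glucocorticoid-induced cochaperone, was 1 of 2 genes called in the light comparison in meninges, with Zbtb16, and both were lower (0.0140% of genes). It measured 22.9 ± 3.59 FPKM in WT, 25.8 ± 7.94 in 5xFAD and 4.21 ± 0.828 FPKM in light-treated meninges (SD, n = 4, 3 and 3). Over the 7 untreated samples, its correlation with Nr4a3 was 0.83 (Spearman 0.93), and the 3 light-treated samples formed a group of their own at the low end of both genes. The 12 listed glucocorticoid-response genes all had negative fold changes with light, 10 of them at an unadjusted p below 0.05 against 7.71% of all genes, with a median of -1.25 against 0.04. Of 22 tested early genes, 20 had negative fold changes, 2 at that unadjusted p, with a median of -0.47. No upstream, partner or target gene of the family was called in meninges. In HPC, light-treated 5xFAD against WT, 8 of the same 12 glucocorticoid-response genes were lower at an unadjusted p below 0.05, against 6.28% of all tested genes, with a median of -0.63 against 0.00. That comparison joins genotype and light. Fkbp5 itself was not lower in HPC, with means of 6.0 FPKM in WT, 6.3 in 5xFAD and 6.5 with light.

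**Figure D5:**
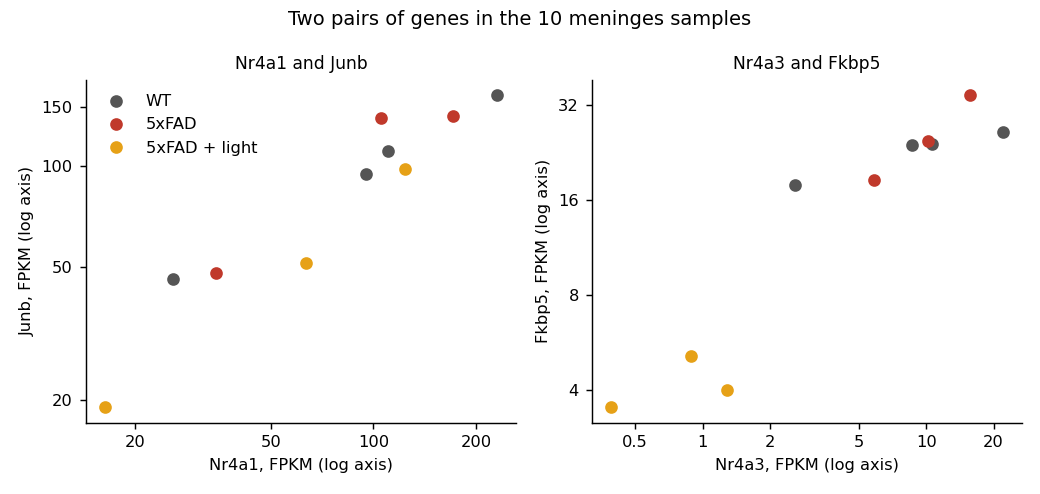
FPKM on log axes of Nr4a1 and Junb (left) and of Nr4a3 and Fkbp5 (right) in the 10 meninges samples, coloured by group. Nr4a1 and Junb run along 1 line through all groups (Pearson 0.95), while for Nr4a3 and Fkbp5 the 3 light-treated samples lie apart from the 7 untreated samples.

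In sorted mLECs, Nr4a2 differed most between groups, and no member was called. It measured 144, 299, 55.8 and 62.6 FPKM in WT, 13.7, 10.6 and 1.86 FPKM in untreated 5xFAD, and 73.8, 41.8 and 60.1 FPKM in 5xFAD + light. Every untreated 5xFAD sample lay below every WT sample, which held for 1.22% of the 8188 tested genes, and every light-treated sample lay above every untreated one, which held for 3.55%. The log2 fold change between 5xFAD and WT was -4.10 (SE 0.94, interval -6.12 to -2.08). Its unadjusted edgeR p of 0.000694 ranked 2 among all genes, but the adjusted p was 1.00. The difference with light was 2.62 (SE 0.90, interval 0.69 to 4.55, edgeR adjusted p = 1.00).

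No gene at all was called in either mLEC comparison (0% of genes each), where 312 and 328 genes had an unadjusted p below 0.05. The biological coefficient of variation was 1.89 in mLECs, against 0.198 in HPC and 0.350 in meninges, and at that spread a lack of calls in mLECs does not show that genes were alike. DESeq2 called 184 genes between 5xFAD and WT mLECs, among them Nr4a2 (adjusted p = 2.54e-05), and 338 between light-treated and untreated, where its Nr4a2 adjusted p was 0.0652. Without WT replicates 2 and 4, the libraries low in lymphatic markers, Nr4a2 stood at -3.72 against WT (edgeR adjusted p = 1.00), a setting chosen after seeing the data.

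Within the family, Nr4a2 made up 6.33% to 20.6% of the summed FPKM in WT mLECs, 0.940% to 3.69% in 5xFAD and 9.22% to 28.1% in 5xFAD + light. Its share was thus below that of every other sample in all 3 untreated 5xFAD libraries. Lymphatic endothelial markers summed to 38.0 to 6736 FPKM in WT, 1156 to 4490 in 5xFAD and 3079 to 9718 FPKM in 5xFAD + light, with none of the 7 at 0 throughout a group. The 5 smooth muscle and pericyte markers summed to 0.19 to 455 FPKM in WT, 3.78 to 611 in 5xFAD and 13.2 to 62.9 FPKM in 5xFAD + light, and of these Acta2 had means of 10.7, 223 and 5.98 FPKM in the 3 groups and Pdgfrb was at 0 in all 5xFAD libraries, treated or not. Tagln had means of 10.7, 94.2 and 23.9 FPKM, while Rgs5 was highest in WT (116, 18.4 and 1.36 FPKM). The blood endothelial marker Kdr had means of 155, 37.5 and 37.8 FPKM, while its list of 6 summed to 1003 to 3285, 1241 to 2745 and 974 to 1449 FPKM. Between 5xFAD and WT, Kdr had a log2 fold change of -2.25. Smaller differences were seen for Pecam1 (-0.03), Cdh5 (-0.22), Cldn5 (0.06), Flt1 (-0.44) and Slco1a4 (-0.94). None of these markers passed an adjusted p. The part of any of them in the Nr4a2 values was not tested.

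Nr4a1 measured 554, 1352, 813 and 925 FPKM in WT mLECs, 356, 798 and 188 FPKM in 5xFAD, and 182, 141 and 585 FPKM in 5xFAD + light. WT samples were the highest, with overlap. The log2 fold changes were -1.18 (SE 0.57) between 5xFAD and WT and -0.56 (SE 0.59) with light, both with an edgeR adjusted p of 1.00. Junb, the gene next to Gbp3 (0.89) at the top of those most like Nr4a1 in mLECs, measured 3011 ± 1267 FPKM in WT, 676 ± 284 in 5xFAD and 648 ± 579 FPKM in 5xFAD + light (SD, n = 4, 3 and 3). Of 22 tested early genes, 16 were lower in 5xFAD than in WT, 5 of them at an unadjusted p below 0.05 against 1.81% of all genes, with a median of -0.63 against -0.04 over all genes. Fos, at 2022, 1947 and 1679 FPKM in the 3 groups, did not follow Junb.

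Nr4a3 was close to the detection limit in several mLEC libraries. It measured 0, 7.58, 0.44 and 0.18 FPKM in WT, 0.88, 0.01 and 7.93 FPKM in 5xFAD, and 6.44, 0.02 and 7.23 FPKM in 5xFAD + light. High and near-zero samples occurred in each group. The listed 0 of WT replicate 1 is 0 of 21543304 counts, which allows up to 0.139 CPM (3 counts of that total), a limit that covers counting error only. Its fitted difference between 5xFAD and WT was 0.32 with a standard error of 2.86, so no change could be resolved at this spread.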

How the data were processed

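RNA of hippocampus, meninges and sorted mLECs was sequenced from Smart-seq2 libraries, which are not strand-specific. The study's methods name fastp for trimming and RSEM for quantification, whereas the submitters' processing notes list Trimmomatic, HISAT2, StringTie, DESeq2 and build mm10 (GRCm38); which of them made each column is not given in the sources used here. The authors deposited FPKM values and expected counts per gene in 2 tables, 1 for HPC and meninges (22 samples) and 1 for mLECs. The members and gene lists were chosen with earlier results of these data known.

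Expected counts, as the authors deposited them, were rounded to whole numbers and fitted per tissue with edgeR 4.0.16 (TMM scaling, quasi-likelihood test, all groups of the tissue in 1 fit) in R 4.3.3, with DESeq2 1.42.0 as an alternative. A gene entered the fit of a tissue if 3 or more of its samples reached an FPKM of 1. P values were adjusted over all tested genes by the Benjamini-Hochberg method. Alternatives were other size factors, no filter, DESeq2, the 2 groups alone, a replicate block, each sample left out, and pseudocounts of 1 and 0.1 for correlations. The rule for named genes took the 3 members, list members that were called or had the largest or smallest fold change, 10 genes named throughout (among them Fos, Egr1, Junb and Crem), and the 5 genes most correlated with a member. Of these, the text gives values for the lists the results turn on. Fits were tested on simulated data, and tables were handled in Python 3.11.15. Promoter sequences came from RefSeq, in which all 3 members were matched. GEO's labels give each sample its group, and n counts mice.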

Additional observations from a re-analysis of the deposited data

Results flagged for a closer look

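In sorted mLECs of WT mice, Nr4a3 was 7.58 FPKM in replicate 2, while the other 3 WT samples lay between 0 and 0.44 FPKM. The gap between this sample and the next was 0.942 of the range of the group, beyond the limit of Dixon's test for 4 samples. Replicate 2 is also the library with the lowest summed lymphatic markers (38.0 FPKM) and the highest Nr4a1 (1352 FPKM). Of 15 groups of 4 samples examined for the 3 genes, this was the 1 beyond the limit, and chance alone marks about 1 in 20.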

How the results depend on the processing

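In HPC, the adjusted p of Nr4a2 for 5xFAD against WT was 0.0666 with the 2 groups alone and 0.0115 to 0.110 with 1 sample left out, and DESeq2 gave 0.0278 for light-treated against untreated. The number of genes called in HPC with light was 35, against 63 without the filter, 192 with DESeq2, 0 with the 2 groups alone and 0 to 136 with 1 sample left out. For light in meninges it was 2, against 72 with DESeq2 and 0 to 2 with 1 sample left out. In mLECs, 9 genes were called without the filter and 184 with DESeq2 for 5xFAD against WT, where Nr4a2 had a DESeq2 log2 fold change of -4.17 (adjusted p = 2.54e-05), and 15 and 338 for light. Nr4a1, light-treated against WT, passed at an adjusted p of 0.0375 in HPC with the 2 groups alone and 0.0114 in mLECs without the filter. The cause of these shifts was not tested. The meninges differences of all 3 genes between 5xFAD and WT changed sign when 1 sample was left out. Low counts limit Nr4a3 in mLECs, where 3 libraries held 0, 1 and 2 counts. Of these, the library with 2 counts was the deepest of all (24207326 counts). The library with 1 count was the shallowest of the mLEC libraries (14231415 counts).

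Samples with the same replicate number did not deviate together (correlations from -0.28 to 0.09 in HPC and -0.31 to 0.24 in meninges), so the numbers do not pair the samples. With the replicate number as a block, the adjusted p of Nr4a2 in HPC, 5xFAD against WT, was 0.0742, and 0 genes were called for light in meninges.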

Other observations

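The relation among the members was looser in HPC than in the meninges as described by their correlations in log2(FPKM + 1). Over the 12 HPC samples, Nr4a1 and Nr4a2 had a Pearson correlation of 0.20 (Spearman 0.36), against 0.90 over the 10 meninges samples, and over the 10 mLEC samples it was 0.46 (Spearman 0.37). These differences were not tested. The genes most like Nr4a1 in HPC were Zc3h8 (0.94), Intu, Slc39a10, Fcho2 and Egr1 (0.89), and Egr1 kept 0.78 without the 2 samples farthest from the median of Nr4a1. Those most like Nr4a2 began with N4bp3 (0.92) and Mtmr4 (0.92), and those most like Nr4a3 with Mphosph10 (0.91) and Bahd1 (0.90). None of the 3 lists of 5 genes held another member of the family.

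Light-treated 5xFAD mice were also set against WT outside HPC, after the values had been seen. In mLECs, the log2 fold changes were -1.74 for Nr4a1 (SE 0.58, edgeR adjusted p = 0.740), -1.48 for Nr4a2 (SE 0.82, adjusted p = 0.852) and 0.86 for Nr4a3 (SE 2.85, adjusted p = 1.00), so none passed. In meninges, where no test was made for the members, Nr4a1 stood at -0.82 (SE 0.70) and Nr4a2 at -1.39 (SE 0.62). In HPC, this comparison called 293 of 12981 tested genes higher and 13 lower. Nr4a2 (-1.23) was among the 13, with the glucocorticoid-induced genes Tsc22d3 (-1.27) and Sgk1 (-1.34), and, among other nuclear receptors, Nr2f2 (-1.14, edgeR adjusted p = 0.0237).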
